A study of Mus musculus with 4 samples.

Results

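The genes described here encode the enzymes and transporters that carry glucose into the cell, split it to pyruvate and export lactate. They were a list of 35 genes named one by one, from the glucose transporter Slc2a1 to the phosphoglucomutase Pgm2, and each of the 35 matched 1 of the 23552 genes in the FPKM table. Of these, 34 reached a mean FPKM of 0.5 across the 4 libraries and were tested together with all 13736 genes that passed this filter. Only Eno2, the neuronal enolase, stayed under it. The list follows what the genes encode, and it was chosen with earlier results of these data known.

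RNA-Seq was performed on c-Kit+ leukemic cells enriched from the bone marrow of moribund mice with MLL-AF9-induced acute myeloid leukemia (AML). There were 2 control libraries (replicates 3 and 4), from cells that overexpressed eGFP alone, and 2 SUV-OE libraries (replicates 2 and 3), from cells that overexpressed Suv39h1, a histone H3K9 methyltransferase, with eGFP. The strain was C57BL/6 by the labels in both groups, and both groups carried the MLL-AF9 fusion. By the study's methods, female C57BL/6J mice of 8 weeks were used, transduced leukemia cells were sorted for eGFP and transplanted into sublethally irradiated mice, and P1 AML cells were sequenced. The transgene was thus carried by the leukemia cells and not by the recipients, and a sublethal dose leaves host blood cells in place. The labels place all 4 libraries in 1 RNA-seq batch and do not say that each came from a separate mouse, so p-values measure the spread between these libraries only.

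Reads recovered per gene from the steps between FPKM values summed to 19879311 to 23317430 per library. For genes at an exon length other than that of GENCODE M21 they may be multiples of the true number. The sums can thus overstate depth. On a gene of 1 kb, 3 reads gave an FPKM of 0.154 in control replicate 3, 0.178 in control replicate 4 and 0.169 in both SUV-OE libraries. By this measure depth was lowest in control replicate 4. Suv39h1 had 1269 and 1104 reads in the control libraries against 7046 and 7608 in SUV-OE, which gave a log2 fold change of 2.56 (SE 0.11, limma adjusted p = 0.00866). Kit, which encodes the surface receptor used to isolate the cells, had FPKM values of 20.4 and 19.2 in control cells but 28.6 and 25.4 in SUV-OE cells (limma adjusted p = 0.16). A list of 8 leukemic progenitor genes, Kit, Hoxa9 and Meis1 among them, had a summed FPKM of 545 and 517 in the control pair against 469 and 507 in the SUV-OE pair, most of it from Mpo (292 to 369). Kit, Meis1 and Ptprc had both SUV-OE values above both control values, as had 25.4% of all tested genes, and Hoxa9, Hoxa10, Flt3 and Mpo had both below, as had 28.4% (all but Kit named after their values were seen). Of the marker lists of mature blood cells, some had sums apart between the groups and others overlapped. The 10 neutrophil genes had a summed FPKM of 754 and 2392 in the control libraries against 6658 and 8106 with SUV-OE, and all 10 had both SUV-OE values above both control values.

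Glycolysis takes up glucose through carriers of the Slc2a family, traps it as glucose 6-phosphate by hexokinase, and commits it by phosphofructokinase 1. Aldolase then splits the sugar, and the enzymes from triose phosphate isomerase to pyruvate kinase turn the triose phosphates into pyruvate, with a net gain of ATP. Lactate dehydrogenase reduces pyruvate to lactate and regenerates NAD+, and carriers of the Slc16a family export the lactate. Fructose bisphosphatase runs against phosphofructokinase 1 and belongs to gluconeogenesis. Hematopoietic and leukemic cells of the bone marrow are known for a high glycolytic rate, and several glycolytic genes are textbook targets of the transcription factors HIF1 and Myc.

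The 5 sequences printed here are the 250 bases before the RefSeq start, on the strand of the gene, in the mouse build GRCm38.p6, of the genes on which the results turn. Fbp1 and Fbp2 were the members that passed the test, Ldha and Ldhb encode the partner subunits of lactate dehydrogenase and had opposite directions, and Pgk1 is a later enzyme whose window holds HIF cores. Capitals mark matches on either strand to any of 3 motifs. The first, ACGTG, is the core of the site that the hypoxia factor HIF1 is known to bind. The second is the E-box known as a site of Myc, CACGTG, which contains the HIF core on both strands. The third is the GC box of the factor Sp1, spelled GGGCGG. The windows are chr13:62888283-62888532 (minus strand) for Fbp1, chr13:62858401-62858650 (minus strand) for Fbp2, chr7:46845554-46845803 (plus strand) for Ldha, chr6:142507958-142508207 (minus strand) for Ldhb and chrX:106186850-106187099 (plus strand) for Pgk1.
Fbp1: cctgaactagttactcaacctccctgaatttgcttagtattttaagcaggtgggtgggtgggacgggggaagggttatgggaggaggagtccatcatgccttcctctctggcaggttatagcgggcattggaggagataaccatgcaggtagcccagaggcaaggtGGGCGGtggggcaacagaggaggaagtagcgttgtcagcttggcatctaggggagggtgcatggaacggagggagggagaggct
Fbp2: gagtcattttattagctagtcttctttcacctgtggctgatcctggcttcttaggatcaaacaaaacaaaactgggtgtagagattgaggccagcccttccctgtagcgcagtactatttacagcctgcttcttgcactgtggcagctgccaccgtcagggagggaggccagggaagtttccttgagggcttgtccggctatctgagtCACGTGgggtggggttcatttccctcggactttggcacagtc
Ldha: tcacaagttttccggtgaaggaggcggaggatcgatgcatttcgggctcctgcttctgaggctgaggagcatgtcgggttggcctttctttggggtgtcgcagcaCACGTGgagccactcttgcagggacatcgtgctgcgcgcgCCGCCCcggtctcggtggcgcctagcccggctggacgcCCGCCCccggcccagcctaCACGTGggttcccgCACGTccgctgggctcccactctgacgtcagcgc
Ldhb: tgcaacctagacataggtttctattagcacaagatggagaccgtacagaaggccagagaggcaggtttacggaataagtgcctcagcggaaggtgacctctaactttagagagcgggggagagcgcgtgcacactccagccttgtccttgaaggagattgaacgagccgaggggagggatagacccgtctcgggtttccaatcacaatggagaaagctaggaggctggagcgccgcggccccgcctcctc
Pgk1: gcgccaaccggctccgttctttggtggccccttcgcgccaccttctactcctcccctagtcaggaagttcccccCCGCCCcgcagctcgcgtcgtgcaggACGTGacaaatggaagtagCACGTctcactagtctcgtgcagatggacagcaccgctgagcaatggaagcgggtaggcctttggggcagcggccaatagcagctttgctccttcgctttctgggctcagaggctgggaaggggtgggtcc
In GENCODE M21 the windows of Fbp1, Ldhb and Pgk1 lie outside any gene. The window of Ldha, 1 of its 2 windows in RefSeq, lies within the annotated gene but in no exon, and 22 bases of the Fbp2 window lie in its first exon.

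The Ldha window held 2 E-boxes, 5 matches to the HIF core, of which 4 lie in the E-boxes, and 2 GC boxes. The Pgk1 window held 2 HIF cores and 1 GC box. It does not stand for the other later enzymes examined, since the Pgam1 window held 1 HIF core, the Tpi1 window 1 GC box and no HIF core, and the Gapdh window none of the motifs. The Fbp2 window held 1 E-box, beginning 42 bases before the start, and 2 matches to the HIF core, both within that E-box. The Fbp1 window held 1 GC box and no HIF core, and the Ldhb window held none of these letters. Among all 32851 promoter windows of this length, 16.6% held a HIF core, 6.02% an E-box and 32.7% a GC box. Of the 52 windows of the 34 members found in the RefSeq table, 38.5% held a HIF core, 11.5% an E-box and 50% a GC box. Slc2a3 was not among the matched members. A match shows only that the letters are there, and was not set against binding data.

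Across the 34 tested members, the log2 fold change, whose sign sets the words higher and lower in counts of genes, was positive in 18 and negative in 16, and its median was 0.01, beside -0.02 over all tested genes. A DEG had to pass 0.05 in the limma p-value adjusted over all genes and a log2 fold change of 1 in size. The upregulated DEGs among the members were Fbp1 and Fbp2, 2 of 34, beside 0.815% of all tested genes. Of these, Fbp2 had passed the filter on mean FPKM only through its SUV-OE libraries, so its call is a description. No member was a down-regulated DEG, beside 0.408% of all tested genes. No other member had a limma adjusted p-value under 0.05, which 1.29% of all tested genes had. At an unadjusted p-value under 0.05, 7 members were higher, beside 10.3% of all tested genes, and 7 were lower, beside 10.4%. Both SUV-OE values lay above both control values in 11 members, beside 25.4% of all tested genes, and below both in 13 members, beside 28.4%. With limma-voom on the recovered reads, 5 members had an adjusted p-value under 0.05 and were higher, namely Fbp1, Fbp2, Pklr, Ldhb and Slc2a3, beside 4.29% of the genes tested. By that fit 0 members were lower at this threshold, beside 1.83%. Fbp2 and Pklr reached the filter of that fit, a mean of 10 reads, only through their SUV-OE libraries.

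**Figure D1:**
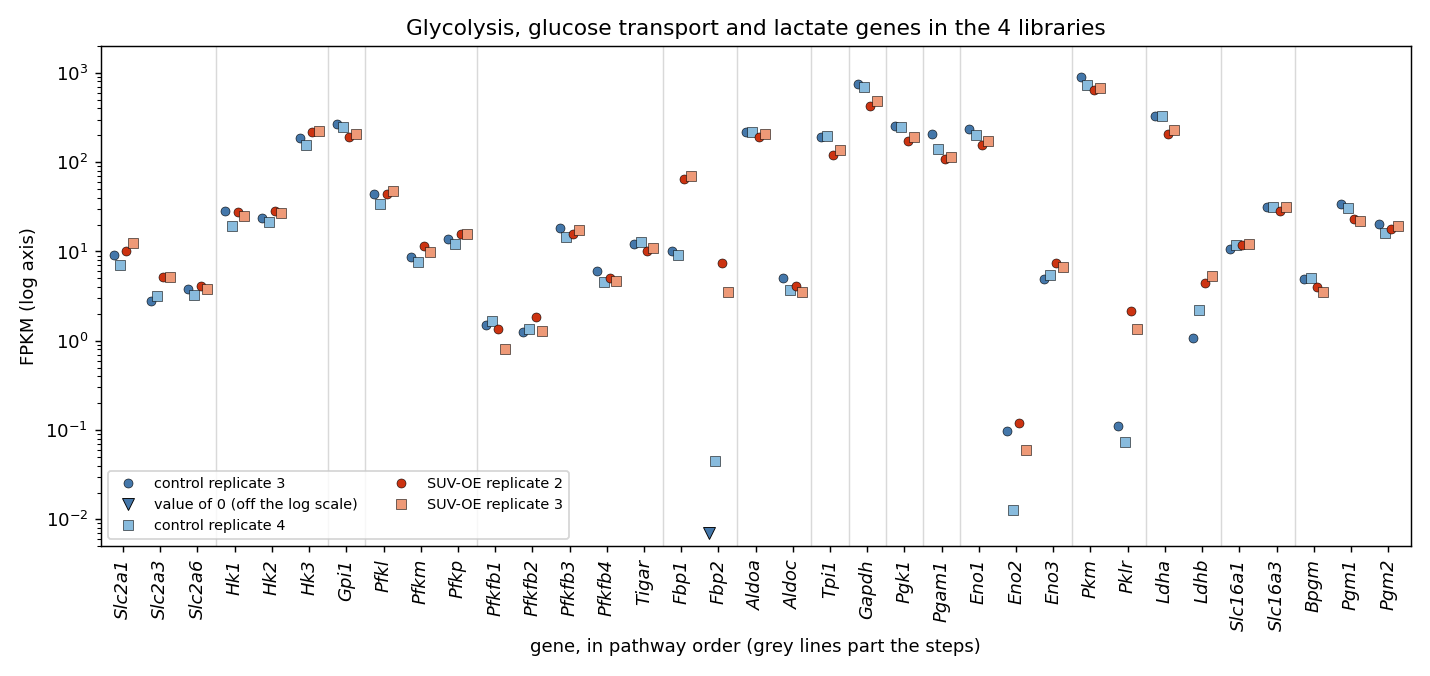
FPKM (log axis) of the 35 genes in pathway order in the 2 control libraries (blue) and the 2 SUV-OE libraries (red), 1 point per library, with a triangle for a value of 0. Fbp1 and Fbp2 stand out with both SUV-OE points far above control, and Gapdh, Tpi1, Pgk1 and Ldha have both SUV-OE points below control.

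A pair of sets was formed from the members with these values known, so the counts are a description. All 9 genes of glucose uptake, hexokinase and phosphofructokinase 1 were higher in SUV-OE, 6 of them with both SUV-OE values above both control values (25.4% of all tested genes), and their median log2 fold change was 0.29. In contrast, Gpi1, Ldha and the most expressed isozyme of each step from aldolase to pyruvate kinase, 9 genes in all, were each lower with both SUV-OE values below both control values (28.4% of all tested genes), and their median log2 fold change was -0.48. Place in the pathway did not part the members, since Gpi1 acts between hexokinase and phosphofructokinase 1, and Eno3, Pklr and Ldhb, of the later steps, had both SUV-OE values above both control values. None of the 18 genes in the 2 sets passed the adjusted threshold by limma. At an unadjusted p-value under 0.05, 2 of the first 9 (Slc2a3 and Pfkm) were higher, beside 10.3% of all tested genes, and 5 of the second 9 were lower, beside 10.4%. Of the 18 genes limma-voom gave an adjusted p-value under 0.05 only to Slc2a3. In the second set its adjusted p-values were 0.059 for Tpi1, 0.0602 for Ldha and 0.0626 for Gapdh. The rest of that set ran from 0.095 (Pgk1) to 0.653 (Aldoa). Without control replicate 4, the number of higher genes among the first 9 was 8, with Hk1 at a log2 fold change of -0.10, and after quantile normalization the number of lower genes among the second 9 was 8, with Aldoa at 0.05.

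**Figure D2:**
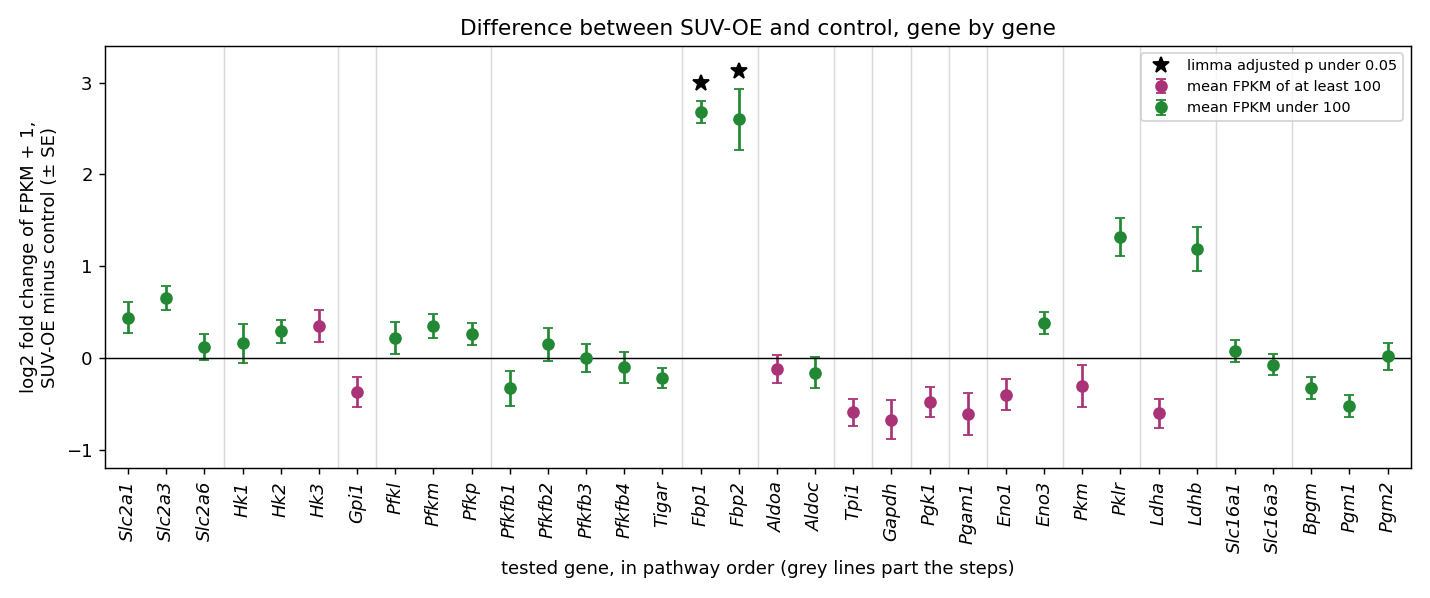
Log2 fold change of FPKM + 1 (SUV-OE minus control, with the SE from limma as bars) of the 34 tested genes in pathway order, coloured by mean FPKM. The genes of uptake, hexokinase and phosphofructokinase 1 lie above 0, Gpi1 and the highly expressed later genes lie below 0 down to -0.67 for Gapdh, and stars mark Fbp1 and Fbp2.

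The genes of the first steps were examined next. Slc2a3 encodes GLUT3, a high-affinity glucose carrier, and Slc2a1 encodes GLUT1, the carrier found in most cells. Slc2a3 (ENSMUSG00000003153, mm10 chromosome 6, 122727809 to 122801640) had FPKM values of 2.79 and 3.18 in the control pair against 5.23 and 5.24 in the SUV-OE pair. Its log2 fold change was 0.65 (SE 0.13, limma adjusted p = 0.0964), and limma-voom gave 0.82 (adjusted p = 0.0302). Slc2a1 had 9.02 and 7.07 in the control libraries against 10.1 and 12.3 in SUV-OE (limma adjusted p = 0.242). Both carriers were thus above control in both SUV-OE libraries, and the distance was wider than the spread within a group for Slc2a3. Slc2a6, a hexose carrier of lysosomal membranes, overlapped between groups, at 3.29 to 3.84 in control and 3.78 to 4.12 in SUV-OE. As a share of the summed FPKM of these 3 carriers, Slc2a3 took 17.8% and 23.5% in the control libraries against 26.9% and 24.6% in SUV-OE, and Slc2a6 took 24.6% and 24.3% in the control pair against 21.2% and 17.8% in the SUV-OE pair.

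Hk3, the hexokinase of myeloid cells, was the most expressed of the hexokinases, with 78.4% to 81% of their summed FPKM in every library. It had FPKM values of 188 and 156 in control cells but 215 and 221 in SUV-OE cells, with a log2 fold change of 0.35 (SE 0.17, limma adjusted p = 0.326). Hk2, the hexokinase that binds mitochondria and responds to growth signals, had 23.5 and 21.3 in the control libraries against 28.4 and 26.8 with SUV-OE (limma adjusted p = 0.254). Hk1, the hexokinase of most tissues, overlapped between groups, at 28.3 and 19.2 in the control pair against 27.7 and 25 in the SUV-OE pair. Hk3 and Hk2 were above control in both SUV-OE libraries, but for Hk3 the step from the higher control library to the lower SUV-OE library (188 to 215) was smaller than that between the control libraries (156 to 188). The shares of the 3 hexokinases overlapped between groups, so their balance differed by no more than the spread.

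Phosphofructokinase 1 is built from the subunits Pfkl (liver type), Pfkm (muscle type) and Pfkp (platelet type). Pfkl took 61.5% to 66.5% of their summed FPKM. Its FPKM overlapped between groups, at 44.4 and 33.8 in the control libraries against 43.6 and 47 in SUV-OE. Pfkm had 8.57 and 7.66 in control cells but 11.4 and 9.83 in SUV-OE cells (limma adjusted p = 0.236), and Pfkp had 13.8 and 12.2 in the control libraries against 15.8 and 15.7 with SUV-OE (limma adjusted p = 0.293). The 2 minor subunits were therefore above control in both SUV-OE libraries, while the major one was not. The bifunctional enzymes that set fructose 2,6-bisphosphate, the activator of phosphofructokinase 1, showed no common direction. Pfkfb3, the most expressed of them, had 18.5 and 14.5 in the control pair against 15.7 and 17.2 in the SUV-OE pair, with a log2 fold change of 0.00 (SE 0.15). Pfkfb2 and Pfkfb4 overlapped between groups too, and Pfkfb1 had 1.51 and 1.68 in the control libraries against 1.36 and 0.812 in SUV-OE (limma adjusted p = 0.4). Tigar, which degrades fructose 2,6-bisphosphate, had 12 and 12.7 in control cells but 10.2 and 10.8 in SUV-OE cells (limma adjusted p = 0.34).

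Fbp1 and Fbp2, which encode the liver and the muscle type of fructose bisphosphatase, rose in SUV-OE. Fbp1 (ENSMUSG00000069805, mm10 chromosome 13, 62864753 to 62888282) had FPKM values of 10.1 and 9.16 in the control libraries against 64.7 and 69.4 with SUV-OE. These values came from 336 and 263 reads in the control pair against 1953 and 2099 in the SUV-OE pair, and the means were 9.65 ± 0.7 and 67 ± 3.33 (SD, n = 2 libraries each). The log2 fold change of Fbp1 was 2.68 (SE 0.12, limma adjusted p = 0.00866), and the ratio of mean FPKM was 6.94. The control libraries differed from each other by about 1 FPKM, far less than the groups differed. Fbp2 (ENSMUSG00000021456, mm10 chromosome 13, 62836877 to 62858422) had 0 and 1 read in the control libraries against 176 and 83 reads in SUV-OE. In FPKM this was 0 and 0.0447 in control, under the 0.116 and 0.134 that 3 reads would give there, and 7.49 and 3.52 in SUV-OE. On the log2(FPKM + 1) scale, which understates the change of a gene near 0, the log2 fold change of Fbp2 was 2.60 (SE 0.33, limma adjusted p = 0.048). Because Fbp2 passed the filter on mean FPKM only through its SUV-OE libraries, this p-value is a description. Over the summed reads, corrected for depth, the ratio was 265, with an exact 95% interval of 47.1 to 10501 that covers counting error only. Fbp2 was thus almost without reads in control, and as a ratio, though not in FPKM, its SUV-OE libraries stood farther apart than those of Fbp1. The longest identical stretch between the longest transcripts of these 2 genes was 23 bases.

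Both calls rested on all 4 libraries. Without control replicate 3, control replicate 4, SUV-OE replicate 2 or SUV-OE replicate 3, the limma adjusted p-value of Fbp1 was 0.186, 0.113, 0.0975 or 0.146 and that of Fbp2 was 0.186, 0.132, 0.141 or 0.146, while in none of these fits was any gene of the table a DEG. With no filter on low values it was 0.109 for Fbp1 and 0.139 for Fbp2, and after quantile normalization it was 0.0506 for Fbp2. Fold changes of Fbp1 stayed between 2.61 and 2.79 on the log2 scale under every alternative tried, whereas those of Fbp2 ranged from 2.15 to 7.16. The value of Fbp2 was 2.15 without SUV-OE replicate 2, 3.05 without SUV-OE replicate 3 and 5.45 with a pseudocount of 0.1. By limma-voom the log2 fold change was 2.79 for Fbp1 (adjusted p = 0.00101) and 7.16 for Fbp2 (adjusted p = 0.00918). Summed over both genes, the FPKM of fructose bisphosphatase relative to that of the 3 phosphofructokinase 1 subunits was 0.152 and 0.172 in control cells but 1.02 and 1 in SUV-OE cells. In FPKM the transcripts of these opposing steps were hence at about equal levels in SUV-OE, whereas those of phosphofructokinase 1 prevailed in control. Such a comparison between genes depends on the exon lengths by which the FPKM were divided. Fbp2 took 0% and 0.486% of the fructose bisphosphatase FPKM in control and 10.4% and 4.83% in SUV-OE.

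Fbp1 and Fbp2 are neighbours on the minus strand of chromosome 13, with 6330 bases between them, so the genes around them were examined. Within 500 kb on either side the table held 16 other genes, of which 13 were tested. Of these, 12 had a positive log2 fold change, although the mean FPKM was higher in SUV-OE in 11 of them only, and 8 had both SUV-OE values above both control values (25.4% of all tested genes), and the median of the 13 was 0.37 on the log2 scale, beside -0.02 over all tested genes. None was a DEG, and the lowest limma adjusted p-value among them was 0.166, for Zfp934, although 4 were higher at an unadjusted p-value under 0.05, beside 10.3% of all tested genes. One of the 4, Mir23b, named after its values were seen, had 0 and 1 read in control cells but 3 and 2 in SUV-OE cells. Zfp934, a zinc finger gene named after its values were seen, had FPKM values of 1.2 and 3.26 in the control libraries against 5.24 and 6.98 with SUV-OE. Its log2 fold change of 1.21 (SE 0.35) was the highest among the neighbours and below that of Fbp1 and Fbp2. Fancc, a DNA repair gene also named after its values were seen, was the 1 neighbour below control in both SUV-OE libraries, at 1.66 and 1.71 in the control pair against 1.53 and 1.49 in the SUV-OE pair. The 4 small noncoding RNAs among the neighbours had at most 5 reads in any library and were not tested by limma-voom, and of the other 9 neighbours 0 passed its adjusted threshold of 0.05.

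**Figure D3:**
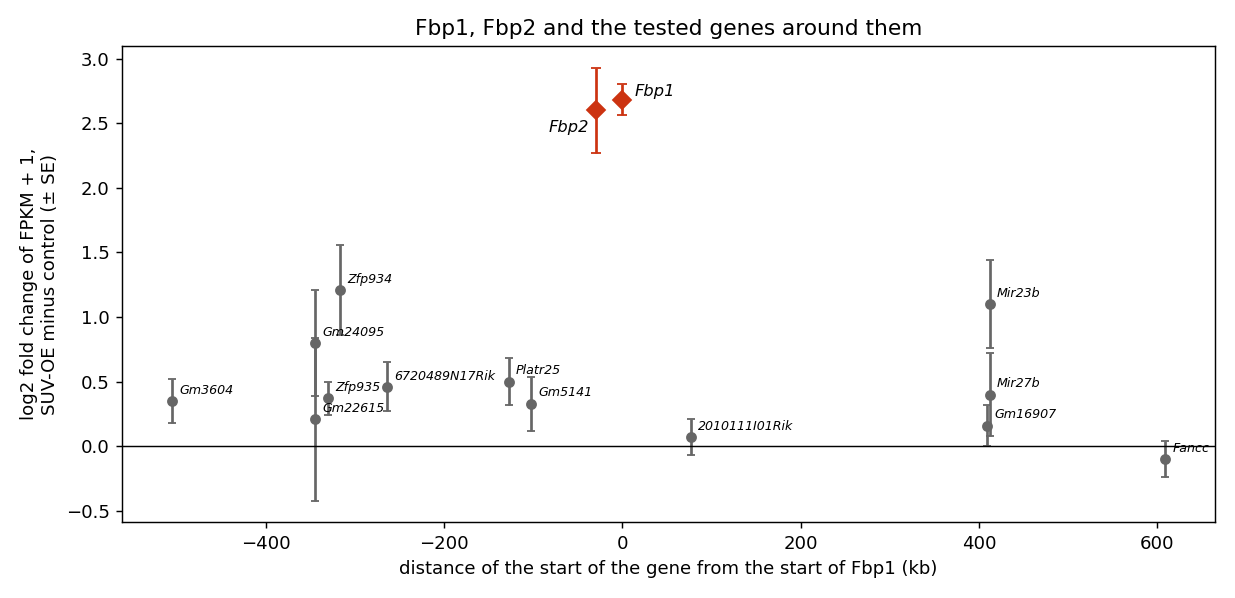
Log2 fold change of FPKM + 1 (SUV-OE minus control, with the SE from limma as bars) against the distance of the start of each tested gene from the start of Fbp1 in kb, for genes that overlap the 500 kb on either side. Fbp1 and Fbp2 (red) lie at 2.68 and 2.60 and the 13 neighbours (grey) between -0.10 and 1.21.

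Gpi1 and the major isozymes from aldolase to lactate dehydrogenase each had a mean FPKM of at least 100, a level that 504 tested genes reached. Gapdh, which oxidizes glyceraldehyde 3-phosphate and makes NADH (ENSMUSG00000057666, mm10 chromosome 6, 125161715 to 125166467), had FPKM values of 746 and 700 in the control libraries against 430 and 482 in SUV-OE, so its mean was 37% lower. The log2 fold change was -0.67 (SE 0.21, limma adjusted p = 0.183). Tpi1, which interconverts the triose phosphates, had 191 and 198 in control cells but 120 and 137 in SUV-OE cells, with a log2 fold change of -0.59 (SE 0.15, limma adjusted p = 0.142). For both genes the groups lay apart by more than the libraries of a group differed. Pgk1, which makes the first ATP of the pathway, had 257 and 249 in the control libraries against 172 and 191 with SUV-OE (limma adjusted p = 0.194). Pgam1, which moves the phosphate of phosphoglycerate, had 209 and 140 in the control pair against 109 and 114 in the SUV-OE pair (limma adjusted p = 0.232). The control libraries of Pgam1 stood farther apart than control replicate 4 stood from SUV-OE.

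Gpi1, Eno1, Pkm and Aldoa differed less in mean FPKM relative to control. Gpi1, which turns glucose 6-phosphate into fructose 6-phosphate, had 269 and 249 in the control libraries against 193 and 209 in SUV-OE (limma adjusted p = 0.279). Eno1, the enolase of most tissues, had 235 and 201 in control cells but 156 and 173 in SUV-OE cells (limma adjusted p = 0.269). Pkm, the pyruvate kinase of muscle and dividing cells and the most expressed member, had 889 and 738 in the control libraries against 640 and 672 with SUV-OE, 19.3% lower in the mean (limma adjusted p = 0.511). Its control libraries differed from each other by more than the nearer one differed from SUV-OE. Aldoa, the main aldolase, differed least, at 219 and 216 in the control pair against 192 and 209 in the SUV-OE pair (limma adjusted p = 0.695), and its log2 fold change was -0.12, but 0.05 after quantile normalization. Aldoc, the brain aldolase, overlapped between groups at 3.5 to 4.99.

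Processed copies of these genes share sequence with them, so reads may be split. Pgam1-ps2 had FPKM values of 14 and 9.99 in the control libraries against 8.99 and 8.53 in SUV-OE, and Eno1b had 3.83 and 2.02 in control cells but 1.7 and 1.92 in SUV-OE cells. These copies, named after their values were seen, were lower in SUV-OE as were Pgam1 and Eno1, at under 10% of their levels. Other listed copies of Gapdh, Ldha, Pgk1 and Pgam1 were under 0.6 FPKM in every library.

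Minor isozymes of pyruvate kinase and enolase had the opposite sign to the major ones. Pklr, the pyruvate kinase of liver and red cells (ENSMUSG00000041237, mm10 chromosome 3, 89136142 to 89146784), had 7 and 4 reads in the control libraries against 125 and 77 with SUV-OE, which is an FPKM of 0.111 and 0.0733 in the control pair against 2.18 and 1.34 in the SUV-OE pair. The log2 fold change was 1.32 (SE 0.21, limma adjusted p = 0.0735). Pklr passed the filter of limma, like that of limma-voom, only through its SUV-OE libraries, so its p-values from both fits are a description. Over the summed reads, corrected for depth, the ratio was 18.8 (exact 95% interval 10.3 to 38.2, counting error only), and limma-voom gave a log2 fold change of 4.10 (adjusted p = 0.0122). Pklr had so few reads in control that the fit with a pseudocount of 1 gave the smaller fold. Eno3, the muscle enolase, had FPKM values of 4.94 and 5.38 in the control libraries against 7.36 and 6.7 in SUV-OE (limma adjusted p = 0.188). Eno2 had 9 and 1 reads in control cells but 10 and 5 in SUV-OE cells, a ratio of 1.53 with an exact 95% interval of 0.645 to 3.82 for counting error, so no difference was detectable at this depth. Even in SUV-OE the minor isozymes stayed a small part of their step. Pklr took 0.0125% and 0.00992% of the pyruvate kinase FPKM in control and 0.339% and 0.199% in SUV-OE, and Eno3 took 2.06% and 2.61% of the enolase FPKM in the control libraries against 4.5% and 3.72% in SUV-OE.

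The subunits of lactate dehydrogenase also had opposite directions. Ldha encodes the subunit that favours the reduction of pyruvate to lactate, and Ldhb the subunit that favours the oxidation of lactate. Ldha (ENSMUSG00000063229, mm10 chromosome 7, 46841475 to 46855627) had FPKM values of 330 and 332 in the control libraries against 208 and 230 with SUV-OE, with means of 331 ± 1.36 and 219 ± 15.4 (SD, n = 2 libraries each). Its log2 fold change was -0.60 (SE 0.16, limma adjusted p = 0.156). Ldhb (ENSMUSG00000030246, mm10 chromosome 6, 142490249 to 142507957) had 1.08 and 2.19 in the control pair against 4.45 and 5.3 in the SUV-OE pair, from 33 and 58 reads and from 124 and 148 reads. For Ldhb limma gave a log2 fold change of 1.19 (SE 0.24, adjusted p = 0.102) and limma-voom 1.67 (adjusted p = 0.0434). The groups did not overlap for either subunit. The ratio of Ldhb to Ldha was 0.00327 and 0.00659 in the control libraries against 0.0214 and 0.0231 in SUV-OE, so Ldha still made up at least 97.7% of the summed FPKM in each library. The lactate carriers MCT1 and MCT4, encoded by Slc16a1 and Slc16a3, overlapped between groups, at 10.7 to 12.2 and at 28.7 to 31.7 over the 4 libraries, and their log2 fold changes were 0.08 and -0.07.

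**Figure D4:**
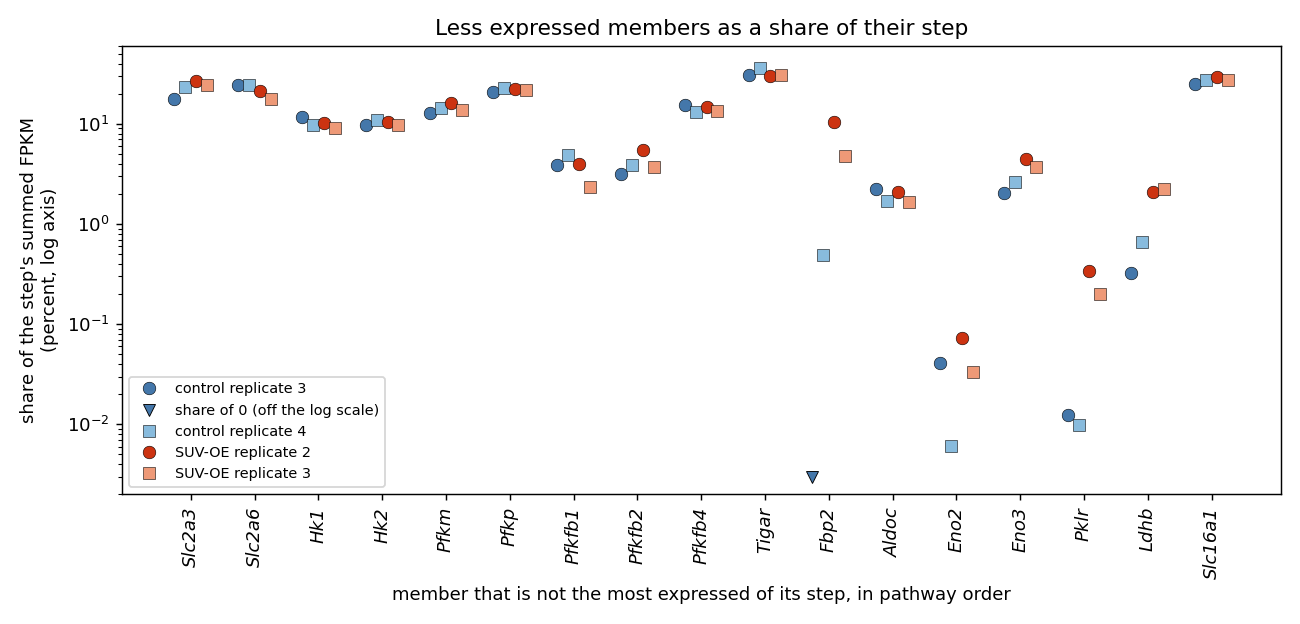
Share (percent, log axis) in the summed FPKM of a step, for the 17 members that are not the most expressed of their step, 1 point per library (control blue, SUV-OE red, triangle for a share of 0). Slc2a3, Fbp2, Eno3, Pklr, Ldhb and Slc16a1 have both SUV-OE points above both control points, Slc2a6 has both below, and the other 10 overlap.

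Genes that branch off the pathway were lower or overlapped. Pgm1, a phosphoglucomutase that links glycolysis to glycogen, had FPKM values of 33.8 and 30.8 in control cells but 22.8 and 21.7 in SUV-OE cells. The log2 fold change was -0.52 (SE 0.12, limma adjusted p = 0.116), and its groups lay apart by more than their spread. Bpgm, which makes 2,3-bisphosphoglycerate in red cells, had 4.91 and 4.99 in the control libraries against 3.97 and 3.53 with SUV-OE (limma adjusted p = 0.237). Pgm2 overlapped, at 20.5 and 16.1 in the control pair against 17.8 and 19.1 in the SUV-OE pair. The symbols Pgm1 and Pgm2 were exchanged in older annotations, and here Pgm1 is ENSMUSG00000025791 on chromosome 4.

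Expression level went along with direction. Of the 10 members with a mean FPKM of at least 100, 9 had both SUV-OE values below both control values, beside 40.1% of the 504 tested genes at that level, and their median log2 fold change was -0.44, beside -0.18. The exception was Hk3, which had both SUV-OE libraries above control, as did 6.94% of those genes. Of the 24 tested members under 100, 17 were higher and their median was 0.16. Over all 13736 tested genes of any level, 6458 were higher and the median was -0.02. Gpi1 and the 8 major isozymes from aldolase to lactate dehydrogenase, 9 in all, summed to an FPKM of 3345 and 3024 in the control libraries against 2220 and 2417 in SUV-OE. All 35 members together made up 1.07% and 0.828% of the summed FPKM of the table in control and 0.818% and 0.803% in SUV-OE. By this share control replicate 4 stood near SUV-OE. Its table had the highest total of FPKM, at 414940, and in the summed FPKM of the 9 isozymes it stood near control replicate 3. In a bulk sample, fewer cells of a type and less RNA per cell cannot be told apart.

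The marker sums differed between the control libraries as well as between the groups. Neutrophil markers were 3.17 times as high in control replicate 4 as in control replicate 3, and the SUV-OE mean was 4.69 times the control mean. Over the same pair of control libraries, the sum of the 9 major isozymes was 0.904 times as high, Ldha 1.01 times, Tpi1 1.04 times, Hk3 0.827 times and Fbp1 0.902 times. Pgam1 was 0.671 times and Ldhb 2.03 times as high in control replicate 4. Between the groups, the sum of the 9 isozymes was 0.728 times as high in SUV-OE and Fbp1 6.94 times. The part of the neutrophil genes in the difference between groups was not tested. Erythroid markers, given here because Pklr and Bpgm are enzymes of red cells, summed to 14.7 and 140 in control cells but 100 and 69.6 in SUV-OE cells, highest in control replicate 4, where Pklr had its lowest value. All 9 erythroid genes had a positive log2 fold change and 4 had both SUV-OE libraries above control (25.4% of all tested genes). In mean FPKM, Hba-a2 and Hbb-bs, named after their values were seen, were lower in SUV-OE, at 0.618 and 0.987 times control. One of the 4 was Klf1, an erythroid transcription factor named after its values were seen, with 0.972 and 0.927 in the control libraries against 3.42 and 2.46 with SUV-OE, and its part in the Pklr values was not tested.

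**Figure D5:**
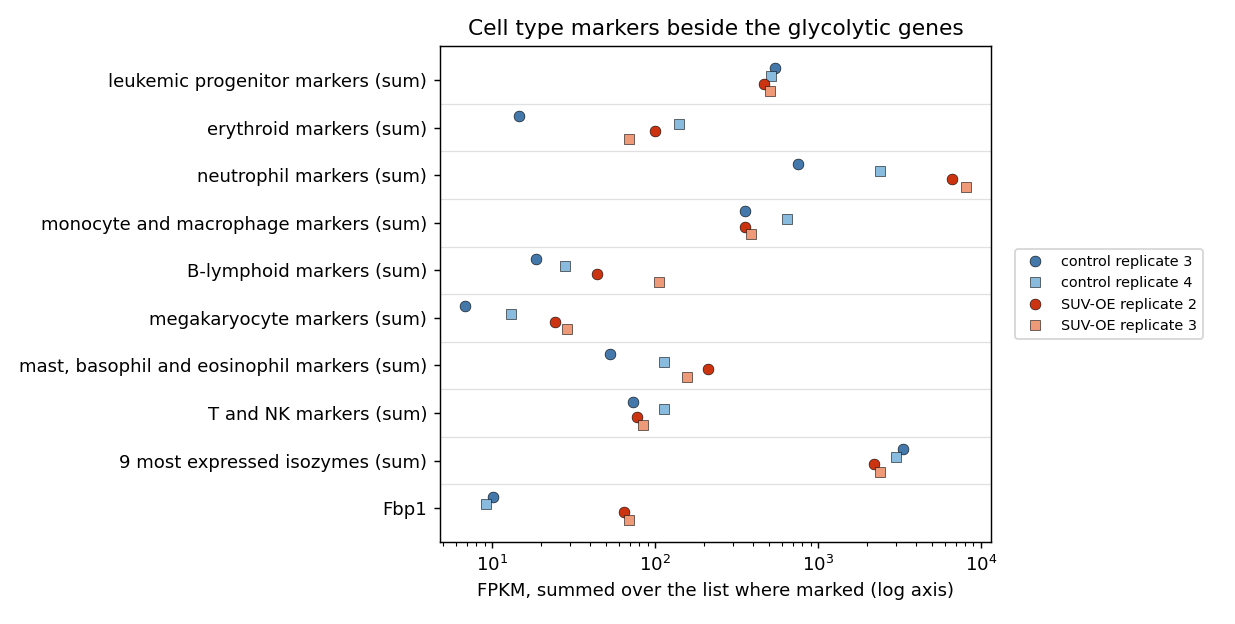
FPKM (log axis) in each library, summed over each marker list and over the 9 major isozymes, and of Fbp1 alone (control blue, SUV-OE red). Neutrophil, B-lymphoid, megakaryocyte and mast cell, basophil and eosinophil sums are higher in both SUV-OE libraries than in both control libraries. The sums of the leukemic progenitor list and of the 9 isozymes are lower in both.

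B-lymphoid genes summed to 18.6 and 28.1 in the control pair against 43.9 and 106 in the SUV-OE pair, with 8 of 9 tested genes above control in both SUV-OE libraries, which 25.4% of all tested genes were. Megakaryocyte genes summed to 6.78 and 13 in the control libraries against 24.4 and 28.9 in SUV-OE, with 3 of 4 tested genes above control, and mast cell, basophil and eosinophil genes to 53.2 and 114 in control cells but 210 and 156 in SUV-OE cells, with 3 of 5, each beside the same 25.4%. The sum of the monocyte and macrophage list (355 to 642) overlapped between groups, but 5 of its 6 tested genes had both SUV-OE values above both control values (25.4% of all tested genes). The other was Ly6c2, named after its values were seen, which made up most of the sum, at 281 and 545 in the control pair against 229 and 269 in the SUV-OE pair. The sum of the T and NK list (73.5 to 113) overlapped too, with Cd4, 1 of its 2 tested genes, above control. Fcer1a, Cd8a and Ncr1 were at 0 in both control libraries. The part of these cell types in the members' values was not tested.

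The other genes of glucose metabolism were taken from 8 lists of 87 genes, of which 86 were in the table and 67 were tested. Their log2 fold change was positive in 21 and negative in 46, with -0.12 as the median, 27 had both SUV-OE libraries below control, beside 28.4% of all tested genes, and 13 had both above, beside 25.4%. All 9 tested genes of the pentose phosphate pathway were lower, 7 of them with the groups apart (28.4% of all tested genes), with a median of -0.28. Pgls, the lactonase of the pathway, had the largest log2 fold change in size among them, at -0.64. Its FPKM values were 40 and 36.7 in the control libraries against 24.1 and 24.4 with SUV-OE (limma adjusted p = 0.0829). All 11 genes of glycogen synthesis and breakdown were lower too, 7 with the groups apart (again beside 28.4%), with a median of -0.17. Phkb, a subunit of phosphorylase kinase, had 28.8 and 26.3 in the control pair against 18.9 and 18.4 in the SUV-OE pair (limma adjusted p = 0.105). None of these 20 genes passed the adjusted threshold by limma, and by limma-voom Pgls did (adjusted p = 0.035).

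Of the genes that decide the fate of pyruvate or pass electrons by glycerol phosphate, 7 of 8 were lower, with a median of -0.09. Pdk3, a kinase that holds back pyruvate dehydrogenase, had 17.8 and 17.3 in the control libraries against 9.33 and 10.1 in SUV-OE (log2 fold change -0.79, SE 0.11, limma adjusted p = 0.0576, limma-voom adjusted p = 0.023). Of the serine and hexosamine branches, 5 of 7 were lower, and Psat1, an enzyme of serine synthesis, had 67.9 and 70.5 in control cells but 51.1 and 51.2 in SUV-OE cells (limma adjusted p = 0.151). Among other carriers, 4 of 5 were lower, and Slc2a9, a urate and hexose carrier, had 6.53 and 6.13 in the control libraries against 4.3 and 3.46 with SUV-OE (limma adjusted p = 0.131). Other isozymes had 2 higher and 2 lower. Adpgk, the ADP-dependent glucokinase, had 29.3 and 34.2 in the control pair against 54.1 and 56.9 in the SUV-OE pair (log2 fold change 0.79, SE 0.13, limma adjusted p = 0.0768, limma-voom adjusted p = 0.0275), in the same direction as the hexokinases.

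Among 13 tested regulators of the pathway, 9 were higher and 4 lower, with a median of 0.08. Of 10 tested HIF targets outside the pathway, 6 were higher, each with the groups apart (25.4% of all tested genes), and 4 lower, with a median of 0.22. Of the 4, Bnip3 and Bnip3l, named after their values were seen, had the groups apart (28.4%). P4ha1, a collagen prolyl hydroxylase, had 7.31 and 8.72 in control cells but 14.6 and 23 in SUV-OE cells (log2 fold change 1.11, SE 0.24, limma adjusted p = 0.11, limma-voom adjusted p = 0.0345).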

How the data were processed

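Transcript levels came from RNA-Seq of 4 libraries, 2 of control and 2 of SUV-OE cells, grouped by their labels. The authors prepared TruSeq RNA v2 libraries, which do not mark strand, and named CASAVA 1.8 and TopHat2 with the build mm10 in their processing notes, and they deposited 1 FPKM value per gene and library. Cufflinks is the stated source of the FPKM, but whole reads at fixed exon lengths, as found here, are unlike its estimates, so the counter behind these values is not known. The annotation release was not given in the sources used here. At GENCODE M21 exon lengths, 78.5% of genes came out as whole reads in all libraries within 0.01. A further 5047 did so at another length, where reads may be a multiple of the true number, and 7 were rounded.

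Genes with a mean FPKM of 0.5 or more were tested with limma 3.58.1 in R 4.3.3 on log2(FPKM + 1), with the group as the one term, an intensity trend and Benjamini-Hochberg adjustment over all tested genes. Fold changes on that scale understate those of low genes. Recovered reads (mean of 10 or more) were tested with limma-voom as an alternative, scaled by the divisors of the deposited FPKM. A floor is 3 reads, and exact (Clopper-Pearson) 95% intervals cover counting error only. The scripts were checked on simulated data.

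The 35 members and all lists were chosen with earlier results of these data known. Genes named are the members, Suv39h1, Kit and, per related list, those with an adjusted p-value under 0.05 or else the one with the largest fold change. A gene that this rule names is not reported here. The alternatives were a pseudocount of 0.1, no filter, a filter at 1, quantile normalization, median-of-ratios scaling, no trend, limma-voom and leaving out each library. Positions are from GENCODE M21 and promoters from RefSeq (GRCm38.p6). Figures were drawn with matplotlib 3.10.9.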

Additional observations from a re-analysis of the deposited data

How the results depend on the processing

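Of 373 recomputed fold changes of single members, 348 kept their direction and their side of the threshold, 11 crossed to an adjusted p-value above 0.05 (Fbp1 and Fbp2 only), 3 crossed below it (Slc2a3, Pklr and Ldhb, by limma-voom) and 11 changed sign, in 8 members. The number of members called as DEGs, 2 here, was 0 with no filter on low values, 1 after quantile normalization (adjusted p = 0.0506 for Fbp2), 4 by limma-voom and 0 with any 1 library left out. The number with an adjusted p-value under 0.05 was 0, 1, 5 and 0 in the same fits. Where limma called 0, the members with an unadjusted p-value under 0.05 were 12 with no filter (4177 over all genes) and 5 to 16 with 1 library left out (1166 to 3877), beside 14 in the full data (2842). With 1 library left out the lone library of its group is assumed to vary like the other group, 0 genes of the whole table were DEGs, and the median over members ranged from -0.12 to 0.10. All genes together gave 168 DEGs, and 0 with no filter, 116 with a pseudocount of 0.1 and 667 by limma-voom. Each sign change was to a value of at most 0.16 in size. After quantile normalization, Aldoa and Slc16a3 were both at 0.05. With 1 library left out, Hk1 ranged from -0.10 to 0.43, Pfkfb2 from -0.01 to 0.32, Pfkfb3 from -0.16 to 0.16, Pfkfb4 from -0.29 to 0.08, Aldoc from -0.33 to 0.01, Slc16a3 from -0.14 to 0.00 and Pgm2 from -0.15 to 0.18. The cause of these changes was not tested, other than that fewer libraries or other sets of genes entered the fits. The counts of 9 higher entry genes and 9 lower isozymes (Gpi1 and later steps), recomputed in every alternative after the data were seen, were 8 to 9 in each case. No paired analysis was possible because just 1 replicate number occurs in both groups. With 2 libraries a group, depth limits what can be said of Eno2, Fbp2 and Pklr in control, which had 10 reads or fewer per library there.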

Other observations

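Some genes counted above among the regulators and HIF targets were named after their values were seen and are given as values only. Txnip, which encodes a protein that restrains glucose uptake and whose transcript responds to glucose, had FPKM values of 29 and 24.8 in the control libraries against 40 and 39.4 in SUV-OE (log2 fold change 0.55, SE 0.13, limma adjusted p = 0.125). Egln3, a HIF prolyl hydroxylase, had 26.3 and 19.2 in control cells but 14.5 and 14.4 in SUV-OE cells (log2 fold change -0.60, SE 0.17, limma adjusted p = 0.165). Ndrg1, a stress-response gene and HIF target, had 1.33 and 1.29 in the control libraries against 3.09 and 3.61 in SUV-OE (log2 fold change 0.91, SE 0.14, limma adjusted p = 0.0686, limma-voom adjusted p = 0.0139). Hif1a itself had 14.7 and 13.4 against 15.4 and 16.9 (limma adjusted p = 0.44), and Myc overlapped between groups, at 59.2 and 45.4 against 58.8 and 53.6. None of these genes was a DEG by limma.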
